A study of Mus musculus with 39 samples.

Results

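Epididymal adipose tissue of mice given KAL-1 with a high fat diet was compared with that of mice on a low fat diet, on 16 of the 39 arrays of the series. The 16 arrays were the KAL-1 and low fat arrays of weeks 9, 12, 15 and 18: 4 for the low fat control diet (LFC) and 12 for KAL-1, with 1 array for each diet at each week. LFC mice received 10% of their calories from fat. The KAL-1 mice received a high fat, high sucrose diet with 60% of calories from fat together with 5 µg (HF5), 20 µg (HF20) or 75 µg (HF75) of KAL-1, an ethnobotanical preparation made up in water. All mice were described as C57BL/6J, weaned at 3 to 4 weeks of age, and the study's methods counted the weeks from day 14 of feeding. No array of the high fat diet alone entered, so fat, sucrose and KAL-1 changed together and their parts cannot be told apart. Arrays of week 3 were left out for a faulty LFC array and those of week 6 for mixed depot genes. The labels say that 5 animals per group were killed at each interval, and do not say whether an array held 1 animal or a pool. The p values therefore measure the spread between these arrays, which may be partly technical.

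The epididymal fat pad of the mouse is a visceral white fat store. Its adipocytes take up fatty acids from the circulation and also make them from glucose through ATP citrate lyase, acetyl-CoA carboxylase and fatty acid synthase, a route that dietary fat is known to lower and that is driven by the transcription factors SREBP-1c and ChREBP. The related factor SREBP-2 drives sterol synthesis. When the pad enlarges on a fatty diet, collagen is laid down and macrophages gather around dying adipocytes.

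A level here is the log2 processed signal of a probe minus the 75th percentile of its array, and a difference of -1 is a 2-fold lower signal. The 75th percentile of the raw signal ran from 119 to 1472 and the share of spots well above background from 53.7% to 79.6%, with the array of HF5 at week 9 the dimmest. All 20 adipocyte genes examined, adiponectin (Adipoq) among them, were well above background on every array, and Xist, which marks female cells, was not tested because it lay below the filter on dim probes. Some arrays stood apart in ways that the diets do not share. Transcripts of immediate early genes appear within minutes of a stimulus. The median level of the 23 such genes measured was -0.55 on LFC and 0.16 on HF75, both at week 12. On HF20 it was 0.71 at week 12 and 0.49 at week 18. On the other 12 arrays that median lay between 4.72 and 5.22, with no array in between. Genes of the epididymis, the duct next to the pad, reached a summed log2 level of 8.17 on LFC at week 9 against -2.68 to 5.04 on the other arrays, and none of the 19 genes was well above background on all 16 arrays. Genes of the mesothelium, the lining of the pad, had a summed log2 level of 1.03 on LFC at week 18 against 3.50 to 5.06 elsewhere. The part of these signals in the results was not tested, and values are also given without the 4 arrays of low immediate early genes, a choice made after the data were seen, for the lists and genes that the results turn on.

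**Figure D1:**
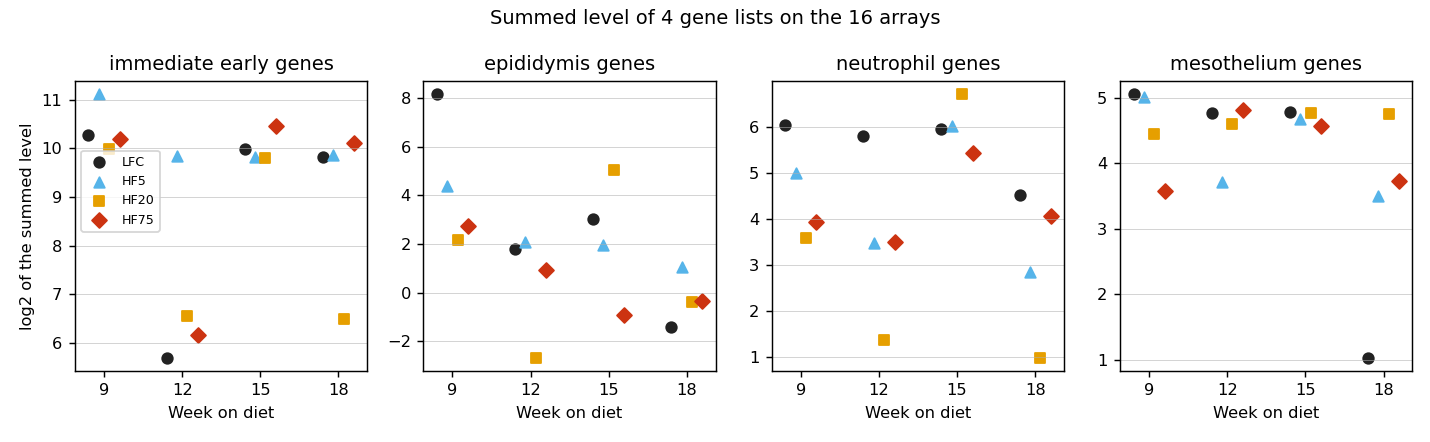
Summed level (log2 of the sum of the unlogged levels) of the immediate early, epididymis, neutrophil and mesothelium lists on the 16 arrays, by week. Each point is 1 array, and colour and shape give the diet. LFC at week 12 is lowest for the immediate early genes (5.70), LFC at week 9 highest for the epididymis (8.17) and LFC at week 18 lowest for the mesothelium (1.03).

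The question asked by the design was which genes differed between the KAL-1 fed high fat mice and the LFC mice over the 4 weeks. The mean of the 3 doses was compared with LFC in limma with the week as a block. Of 30515 probes tested, 0 (0%) passed an adjusted p of 0.05, the smallest adjusted p being 1.00. At an unadjusted p under 0.05 there were 398 probes, of which 244 (0.8%) were lower and 154 (0.505%) higher with KAL-1. Without the 4 arrays there were 331 and again 0 passed. Both counts are below the 5% of probes that chance gives when probes are independent. For the mean of the doses, this threshold thus gave no excess of probes. The median difference of all probes was -0.01 with a median SE of 0.37, and 51.8% of the probes had a difference below 0. Differences of -1 or less were found for 829 probes (2.72%) and of 1 or more for 126 (0.413%). The slide as a random block and quantile normalisation also gave 0 probes after adjustment. So did a paired t-test on the weekly differences (957 probes at an unadjusted p under 0.05) and the authors' deposited values (956 such probes). The t-test of the study's methods compares replicate arrays within a time point, which a single array per diet and week does not allow.

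De novo lipogenesis was the process whose genes stood lowest with KAL-1. All 20 of its measured genes had a difference below 0, with a median of -0.79 against -0.01 for all probes tested. None passed the adjusted threshold, and 3 (Elovl6, Acly and Scd2) had an unadjusted p under 0.05, all lower (2 genes without the 4 arrays). Elovl6, the elongase that turns palmitate into stearate, had levels of 0.71, 5.90, 0.16 and 2.45 on the LFC arrays of weeks 9, 12, 15 and 18. The 12 KAL-1 arrays lay between -0.96 and 1.76 with a median of -0.30. All 12 were below the LFC array of their own week, as were those of 26 of all probes (0.0852%), although the groups overlapped. The difference was -2.36 ± 0.58 (SE, limma, unadjusted p = 0.00134, adjusted p = 1.00), and -1.49 ± 0.40 without the 4 arrays. Acly, the enzyme that supplies cytosolic acetyl-CoA, had levels of 3.02, 5.36, 0.35 and 2.35 in LFC and from -0.72 to 2.46 (median 0.89) with KAL-1. At weeks 9, 12 and 18 the KAL-1 arrays were lower and at week 15 the diets lay close together, for a difference of -1.75 ± 0.54 (SE), or -1.06 ± 0.43 without the 4 arrays. Scd2, a desaturase, is named here after its values were seen: its levels were 2.40, 5.77, 2.02 and 3.17 in LFC, and from 0.99 to 4.63 with KAL-1. It too was below LFC of the same week on all 12 arrays, by -1.06 ± 0.46 (SE), or -0.64 ± 0.33 without the 4 arrays.

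The 2 genes of the pathway that were to be given whatever their values did not reach an unadjusted p of 0.05. Fasn, fatty acid synthase, had levels of 6.35, 5.71, 5.44 and 6.42 in LFC and from 3.38 to 6.75 (median 5.32) with KAL-1, a difference of -0.84 ± 0.48 (SE). One of its KAL-1 values, HF75 at week 18, was missing, and saturated spots occurred on 2 LFC and 4 KAL-1 arrays. Scd1, the main desaturase of fat, had levels of 5.00, 5.85, 4.85 and 6.37 in LFC and from 2.71 to 6.88 with KAL-1, a difference of -0.77 ± 0.38 (SE). Of the lipogenic regulators, Srebf1, which encodes SREBP-1c, stood nearer to 0, with a difference of -0.21 ± 0.40. Mlxipl, which encodes ChREBP, differed by -0.85 ± 0.95, about as much as Fasn but with a larger SE.

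Genes of cholesterol synthesis and uptake stood next. Of 23 measured genes, 22 had a difference below 0, the exception being Srebf2 (0.24 ± 0.33), which encodes SREBP-2. The median was -0.56, 0 genes passed the adjusted threshold, and 4 were lower at an unadjusted p under 0.05, against 0 genes without the 4 arrays. Fdps, which makes farnesyl pyrophosphate, had levels of -0.35, 3.44, -1.03 and 0.68 in LFC and from -2.37 to 1.28 (median -0.57) with KAL-1, a difference of -1.15 ± 0.43 (SE), or -0.51 ± 0.35 without the 4 arrays. Cyp51, lanosterol demethylase, had levels of -2.28, 1.61, -3.55 and -3.22 in LFC and from -5.00 to -0.97 (median -3.28) with KAL-1, a difference of -1.50 ± 0.59 (SE), or -0.60 ± 0.43 without them. For both genes the highest level of all 16 arrays was that of LFC at week 12. Nsdhl and Lss, the other sterol enzymes at an unadjusted p under 0.05, were chosen after their values were seen and differed by -1.13 ± 0.49 and -1.29 ± 0.59, or -0.67 ± 0.42 and -0.59 ± 0.48 without the 4 arrays.

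The promoters of these genes are shown because SREBP proteins are known to act at sterol genes together with the factor NF-Y, which binds CCAAT. RefSeq sequence of the mouse build GRCm38.p6 was read for the 250 bases before the start site of Cyp51 (chr5:4104698-4104947, minus strand), Lss (chr10:76531355-76531604, plus strand), Nsdhl (chrX:72918271-72918520, plus strand) and Fasn (chr11:120824548-120824797, minus strand). They run 5′ to 3′ along the strand of the gene, with CCAAT in either orientation (CCAAT or ATTGG) in capitals.
Cyp51: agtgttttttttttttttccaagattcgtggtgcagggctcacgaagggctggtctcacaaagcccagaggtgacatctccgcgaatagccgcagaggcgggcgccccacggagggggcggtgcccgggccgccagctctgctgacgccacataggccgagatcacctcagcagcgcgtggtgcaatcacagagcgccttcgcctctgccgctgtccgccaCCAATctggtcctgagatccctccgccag
Lss: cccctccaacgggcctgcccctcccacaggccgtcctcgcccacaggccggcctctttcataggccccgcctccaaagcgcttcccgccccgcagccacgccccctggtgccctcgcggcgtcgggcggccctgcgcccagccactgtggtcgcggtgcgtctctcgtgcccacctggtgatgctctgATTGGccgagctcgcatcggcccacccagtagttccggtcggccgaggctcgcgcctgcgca
Nsdhl: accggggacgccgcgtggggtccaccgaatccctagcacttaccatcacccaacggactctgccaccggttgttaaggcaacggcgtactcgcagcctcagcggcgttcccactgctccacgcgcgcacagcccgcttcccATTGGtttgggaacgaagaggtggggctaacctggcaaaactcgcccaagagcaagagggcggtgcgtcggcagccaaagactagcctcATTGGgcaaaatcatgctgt
Fasn: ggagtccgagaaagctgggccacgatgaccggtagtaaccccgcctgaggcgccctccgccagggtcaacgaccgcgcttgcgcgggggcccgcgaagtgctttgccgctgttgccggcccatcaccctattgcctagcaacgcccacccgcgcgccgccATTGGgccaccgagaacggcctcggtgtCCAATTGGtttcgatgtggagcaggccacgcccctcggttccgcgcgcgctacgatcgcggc
Cyp51 and Lss each held 1 box, Nsdhl 2 and Fasn 3, of which 2 overlap. Of the cholesterol genes, 15 of 23 had a promoter in the table and 15 of those 15 (100%) held the motif on either strand. The share was 10 of 16 (62.5%) for lipogenesis, 5 of 18 (27.8%) for collagens and matrix, and 37.5% of the promoters of all 27025 genes. The sterol regulatory element TCACNCCAC was found in 1 of 15 cholesterol, 1 of 16 lipogenic and 1 of 18 collagen and matrix promoters against 1.22% of all genes, and the E-box CACGTG in 4 of 15, 2 of 16 and 0 of 18 against 6.86%. A gene counted once if any of its promoters held the letters. These are matches of letters in a window, and the genes were chosen with the expression values known.

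**Figure D2:**
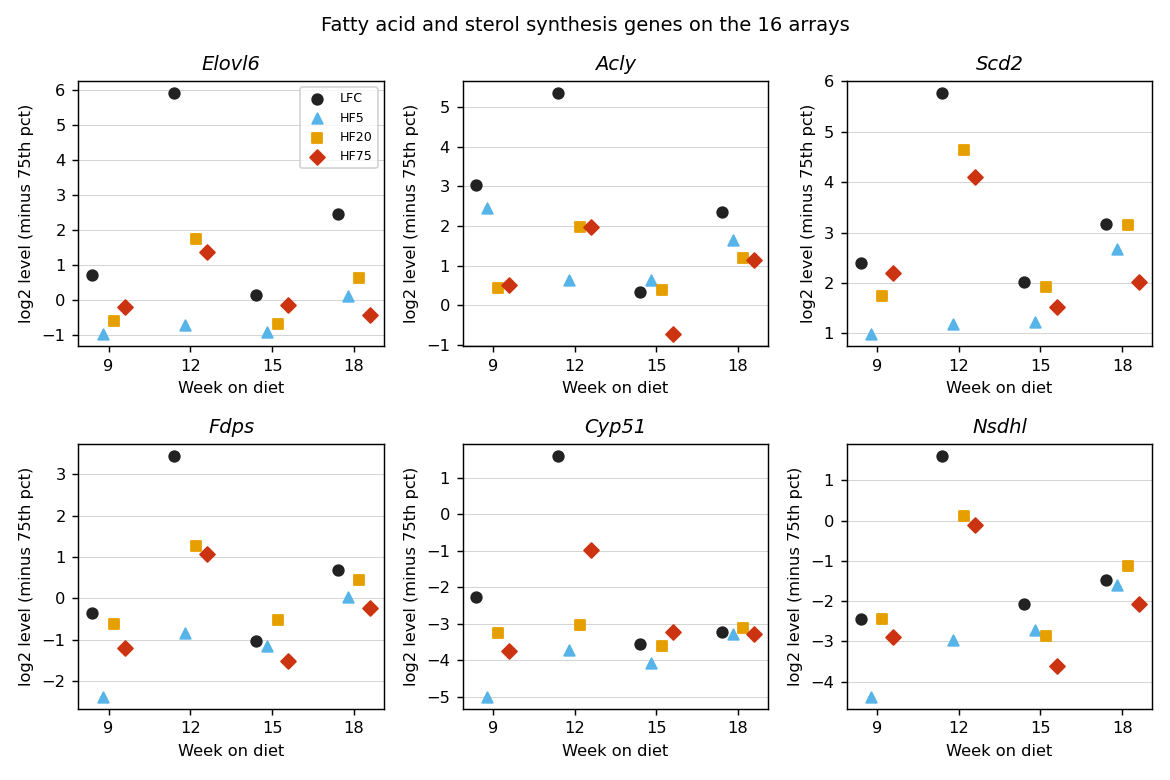
Levels of Elovl6, Acly, Scd2, Fdps, Cyp51 and Nsdhl (log2 processed signal minus the 75th percentile of the array) against week. Each point is 1 array, with LFC in black and the KAL-1 doses in colour. The LFC array of week 12 is the highest point in all 6 panels, for example 5.90 for Elovl6, whereas at week 15 the diets lie close together in most.

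The lipogenic difference was unlike in size from week to week. The median difference of the 20 lipogenic genes was -0.65 at week 9, -2.40 at week 12, -0.18 at week 15 and 0.05 at week 18, and that of the 23 cholesterol genes was -0.61, -1.63, -0.17 and 0.03. The largest difference came from the week whose LFC array was among the 4 that stand apart. Without those 4 arrays the medians were -0.49 for lipogenesis, with 4 of 20 genes above 0, and -0.24 for cholesterol, with 6 of 23 above 0. Each week rested on 1 LFC array, so a weekly value has no replicate of its control. The change between the earlier weeks (9 and 12) and the later weeks (15 and 18) was tested across all probes with limma, and 0 of 30515 probes (0%) passed, with 620 at an unadjusted p under 0.05. The genes with the smallest p in that test were Sat1, which acetylates polyamines (a change of -4.31, unadjusted p = 0.00079), Cstdc6, a stefin-like protease inhibitor (5.04, p = 0.0011), and Lmo1, a LIM domain factor (-2.55, p = 0.0018), by limma over 16 arrays. Sat1 and Lmo1 had a missing value on HF75 at week 15.

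**Figure D3:**
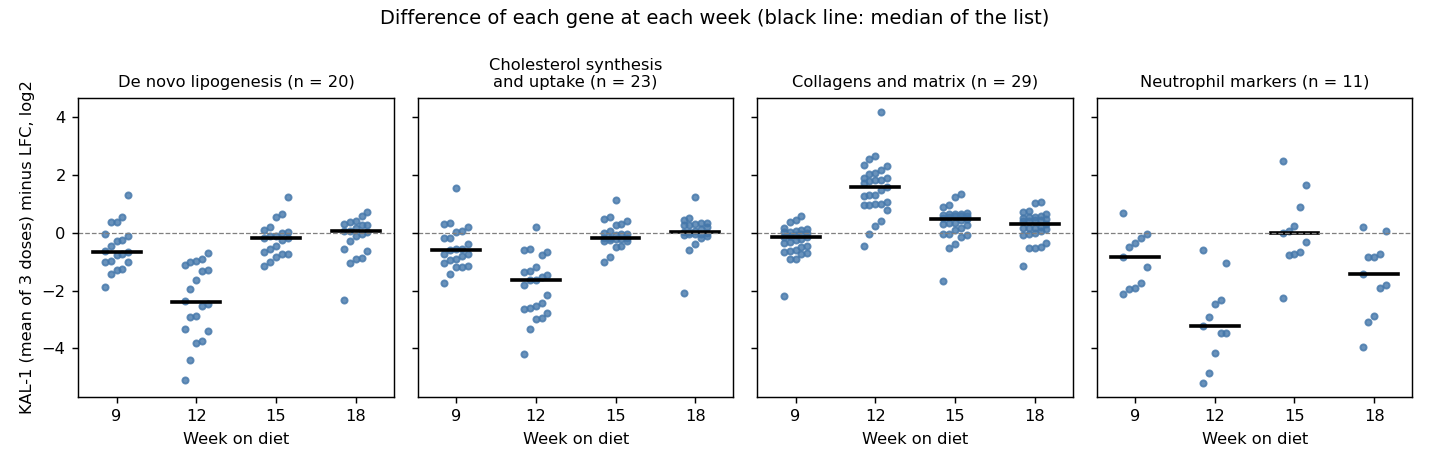
Difference of every tested gene (KAL-1, mean of 3 doses, minus LFC, log2) at each week for de novo lipogenesis (20 genes), cholesterol synthesis and uptake (23), collagens and matrix (29) and neutrophil markers (11); a point is 1 gene and the black line the median. Week 12 stands out in all 4 panels, with medians of -2.40, -1.63, 1.58 and -3.22.

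Collagens and matrix were the process whose genes stood highest. Of 29 genes, 26 had a difference above 0 and the median was 0.48, with 0 passing and 1, Col14a1, at an unadjusted p under 0.05. Col14a1, a fibril-associated collagen, had levels of 2.69, -0.24, 1.32 and -0.62 in LFC and from -0.20 to 2.75 (median 2.08) with KAL-1, a difference of 0.93 ± 0.35 (SE), or 0.40 ± 0.35 without the 4 arrays, where 0 genes of the list were at an unadjusted p under 0.05. Fn1, fibronectin, had levels of 2.45, 0.16, -0.01 and 0.51 in LFC and from -1.11 to 3.95 with KAL-1, a difference of 0.90 ± 0.42 (SE). The median of the list was -0.15 at week 9, 1.58 at week 12, 0.46 at week 15 and 0.32 at week 18, and 0.15 without the 4 arrays. Genes of adipose progenitors, the stromal cells that make matrix and give rise to fat cells, had a median of 0.40, with 10 of 13 above 0. Pi16, a marker of the early progenitor, differed by 0.88 ± 0.34 (SE, unadjusted p by limma 0.0244, n = 16 arrays) and Ebf2 by 0.58 ± 0.30. That list's median was 0.10 without the 4 arrays. In bulk tissue, fewer cells of a type and less RNA per cell cannot be told apart.

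Macrophage genes stood a little above 0. The resident macrophage list had a median of 0.40 with 13 of 15 genes above 0, and the list of lipid associated macrophages, the cells that surround dying adipocytes, had 0.41 with 13 of 17 above 0. The medians were 0.26 and 0.31 without the 4 arrays. By dose, the lipid associated median was 0.81 with HF5 (16 of 17 above 0), 0.26 with HF20 (11) and 0.01 with HF75 (9). The resident median was 0.19, 0.57 and 0.31 in the same order, and no difference between these medians was tested. Adgre1, the F4/80 antigen, had levels of 2.26, 1.80, 3.33 and 0.89 in LFC and from 1.81 to 3.73 (median 2.85) with KAL-1, a difference of 0.63 ± 0.31 (SE). Folr2 differed by 0.65 ± 0.31 and Csf1r, the receptor for the macrophage growth factor, by 0.59 ± 0.29. Lipa, lysosomal acid lipase, differed by 0.94 ± 0.42. For the mean of doses it alone of the lipid associated list had an unadjusted p under 0.05, against 7 genes with HF5. Itgax, which encodes CD11c, had levels of -1.44, -3.43, -1.08 and -1.85 in LFC. With HF5 these were 1.71, -0.32, -0.85 and -0.44, with HF20 -0.92, -1.38, -0.70 and -1.48, and with HF75 -0.77, -2.56, -3.21 and -2.85. Its difference over the 3 doses was 0.80 ± 0.42 (SE). The HF5 arrays, at -0.85 or higher, all lay above the LFC arrays, at -1.08 or lower. The ranges of HF20 and HF75 overlapped that of LFC. The share of all probes that HF5 and LFC set apart in this way was not counted, and Itgax did not pass the adjusted threshold with HF5.

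Among signals of immune cells, Ccl2, the monocyte attractant, was -0.14 on LFC at week 12 and 5.16 to 7.24 on the other LFC arrays. Of the 12 KAL-1 arrays 3 were below 1, and these were the 3 among those that stand apart. The difference was 0.14 ± 1.05 (SE), with no order of the diets. Of 27 cytokine and chemokine genes, 20 had a difference above 0 and the median was 0.28, which was -0.31 without LFC at week 12 and -0.18 without HF5 at week 12. Cx3cr1, the fractalkine receptor, had a difference of -1.41 ± 0.63 (unadjusted p by limma 0.0426) and Ccl8, another attractant of monocytes, one of -0.97 ± 0.49, the latter -0.22 without the 4 arrays. The 11 genes used as neutrophil markers all had a difference below 0, with a median of -1.47, and 5 of them (S100a9, Camp, S100a8, Ltf and Mpo) had an unadjusted p under 0.05. S100a9, a calprotectin subunit chosen after its values were seen, had levels of 5.92, 5.41, 5.59 and 4.31 in LFC and from 0.63 to 6.26 (median 3.56) with KAL-1. The summed log2 level of the 11 markers was 4.52 to 6.05 in LFC and 0.99 to 6.71 with KAL-1, and 5 of the 11 genes were well above background on all 16 arrays. The weekly medians were -0.85, -3.22, 0.01 and -1.44, and without the 4 arrays the median was -0.64, with 0 of the 11 at an unadjusted p under 0.05. The T cell markers had a median of -0.36 with 0 of 10 above 0 (-0.52 without the 4 arrays). The lists of markers of other cells and tissues ranged in their median from -1.51 for the epididymis to 0.71 for the mesothelium (-1.40 and 0.68 without the 4 arrays), and their part in the results was not tested.

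Fatty acid oxidation showed a difference close to 0 with most genes above it. Of 21 genes, 15 were above 0 and the median was 0.09 (0.34, with 20 of 21 above 0, without the 4 arrays). Cpt1a, which admits long-chain fatty acids to mitochondria, had levels of 1.76, 0.79, 1.56 and 1.46 in LFC and from 1.19 to 2.42 (median 2.12) with KAL-1, and 11 of 12 KAL-1 arrays were above LFC of their week. Its difference was 0.64 ± 0.26 (SE, unadjusted p by limma 0.0311). The respiratory chain had a median of -0.05 with 6 of 26 genes above 0, but of 0.09 with 16 of 26 above 0 without the 4 arrays. In that list, Cox6c differed by -0.66 ± 0.54. Thermogenic genes had a median of -0.45 over 10 tested and -0.10 without the 4 arrays. Among these, Kcnk3, a potassium channel, differed by -0.91 ± 0.45 and Fgf21, a metabolic hormone, by -0.74 ± 0.55.

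Genes of the adipocyte itself and of pad growth did not separate the diets. Lep, which encodes leptin and is known to follow fat mass, had levels of -0.20, 0.84, -0.59 and 2.31 in LFC. With HF5 it was -2.72, -1.05, -2.19 and 2.55, with HF20 -0.25, 4.27, -0.08 and 3.85, and with HF75 0.03, 1.98, -1.70 and 0.42. The ranges overlapped throughout and the difference was -0.17 ± 0.61 (SE), above 0 under another background correction (normexp) and array weights. Adipoq differed by -0.31 ± 0.43 and the adipocyte list had a median of -0.06, with 9 of 20 above 0 (0.01, with 11 of 20, without the 4 arrays). In that list the smallest p were for Aqp7, the glycerol channel (0.54 ± 0.35), and Acvr1c, the ALK7 receptor (-0.87 ± 0.78). Mest, whose level is known to rise with growth of the pad, had levels of 1.80, 0.19, 1.27 and 2.49 in LFC and from -0.36 to 4.09 (median 1.85) with KAL-1, a difference of 0.62 ± 0.40 (SE). Sfrp5, another gene of pad growth, differed by -0.22 ± 0.41, and Npr3, the natriuretic peptide clearance receptor, by 0.79 ± 0.55, which was -0.04 without the 4 arrays. The median of that list of 6 genes was 0.41, and -0.07 without the 4 arrays.

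The remaining process lists had medians between -0.18 and 0.18 over the 16 arrays, with 0 genes passing. Without the 4 arrays the sign turned for acute phase and complement (0.06), antigen presentation (-0.00098), the cell cycle (-0.16, with 8 of 25 genes above 0 against 18 of 25), xenobiotic and oxidative stress genes (0.10) and the glucocorticoid response (-0.05). For each, the 2 genes of smallest p are given as differences with SE. Acute phase and complement (-0.09) held Lcn2 (-1.59 ± 0.79) and Orm1 (-0.995 ± 0.77). Antigen presentation (0.06) held H2-Eb1 (0.55 ± 0.38, below 0 under normexp) and H2-DMb1 (-0.71 ± 0.62). Branched chain amino acid breakdown (0.02) held Ppm1k (0.44 ± 0.33) and Dld (-0.27 ± 0.39). None of these 6 genes had an unadjusted p under 0.05. Insulin signalling (0.00) held Irs1 (0.57 ± 0.44) and Pik3r1 (-0.32 ± 0.28, 0.0032 without the 4 arrays). The cell cycle (0.13) held Mcm5 (0.31 ± 0.22) and Plk1 (0.40 ± 0.32, below 0 under normexp). The circadian clock (-0.06) held Per3 (0.81 ± 0.46) and Hlf (0.59 ± 0.37), both below 0 under normexp. The hour at which the mice were killed is not given in the labels. The interferon response (-0.18) held Ddx58 (0.40 ± 0.42) and Ifi44 (-0.41 ± 0.41), and the endothelium (-0.03) held Flt1 (-0.22 ± 0.37) and Apln (0.28 ± 0.35). The glucocorticoid response had a median of 0.04 and a mean of -0.07, with Lcn2 again and Fkbp5 (-0.66 ± 0.48). Xenobiotic and oxidative stress genes (-0.06) held Ahrr (0.46 ± 0.28, below 0 under normexp) and Gstt1 (0.27 ± 0.23). Heat shock and endoplasmic reticulum stress (-0.07) held Pdia4 (-0.27 ± 0.29) and Atf4 (-0.46 ± 0.51), and the immediate early list (0.18) held Jund (0.44 ± 0.50) and Dusp1 (0.46 ± 0.64).

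**Figure D4:**
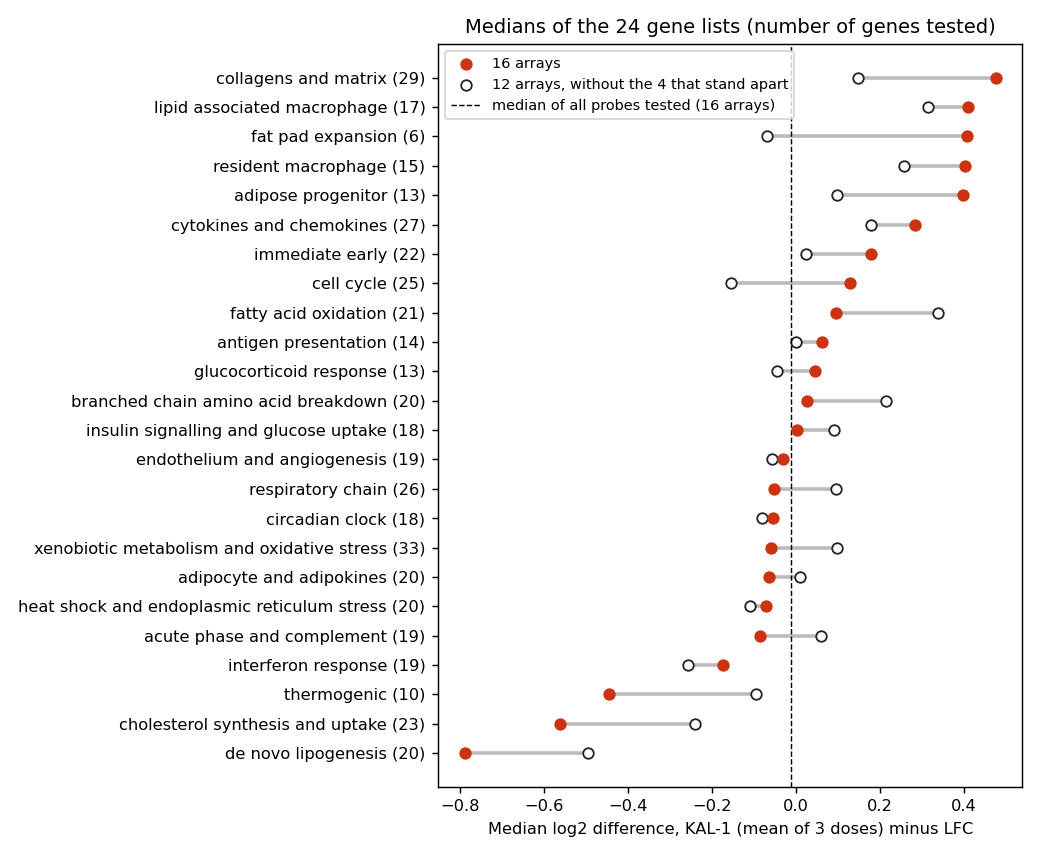
Median difference of each of the 24 process lists (KAL-1, mean of 3 doses, minus LFC, log2), with the number of genes tested in parentheses; red points use 16 arrays and open points the 12 left without the 4 that stand apart. Over 16 arrays de novo lipogenesis (-0.79, then -0.49) and cholesterol (-0.56, then -0.24) lie lowest, and collagens move from 0.48 to 0.15. Without the 4 arrays the interferon response (-0.26) lies below cholesterol.

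Single genes with the smallest p included several that were lower at every week. Ncan, which encodes the proteoglycan neurocan, had levels of -1.77, 1.504, -3.16 and -1.16 in LFC. The KAL-1 arrays lay between -5.71 and -2.47 with a median of -4.38, and each was at least 2-fold below the LFC array of its week. It was the only probe of which this was true, and 0 probes were 2-fold higher on all 12. The difference was -3.06 ± 0.62 (SE, unadjusted p by limma 0.000299, adjusted p = 1.00) and -2.28 ± 0.48 without the 4 arrays. Mosc1, a mitochondrial molybdenum enzyme, had levels of -0.31, 3.12, -1.58 and 1.57 in LFC and from -4.35 to 0.75 (median -2.29) with KAL-1, a difference of -2.86 ± 0.66 (SE), or -1.94 ± 0.67 without the 4 arrays. It was likewise below LFC of the week on all 12 arrays. Amd1, which makes the aminopropyl donor for polyamines, differed by -1.54 ± 0.35, and 11 of 12 KAL-1 arrays were below. All 12 KAL-1 arrays were above LFC of their week for 23 probes (0.0754%). The 12 and 4 arrays did not overlap for 2 probes lower with KAL-1 (0.00655%) and 0 higher (0%). These 2 were Slc25a32, the mitochondrial folate carrier (-0.75 ± 0.29), and the predicted gene Gm600 (-1.36 ± 0.40), which are named after their values were seen.

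The genes of smallest p on the higher side were dim ones. Islr2 (2.06 ± 0.44), Sec16b (1.21 ± 0.30), Sync (1.12 ± 0.28), Serpinb8 (1.01 ± 0.26) and Krt78 (1.26 ± 0.38) all had LFC mean levels below -5. Islr2 and Sec16b were not well above background on any LFC array and on 6 of the 12 KAL-1 arrays they were, so their differences are bounds of at least 1.08-fold and at least 1.02-fold. With normexp, which shifted the median of all probes to -0.27, all 5 had a difference below 0.

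**Figure D5:**
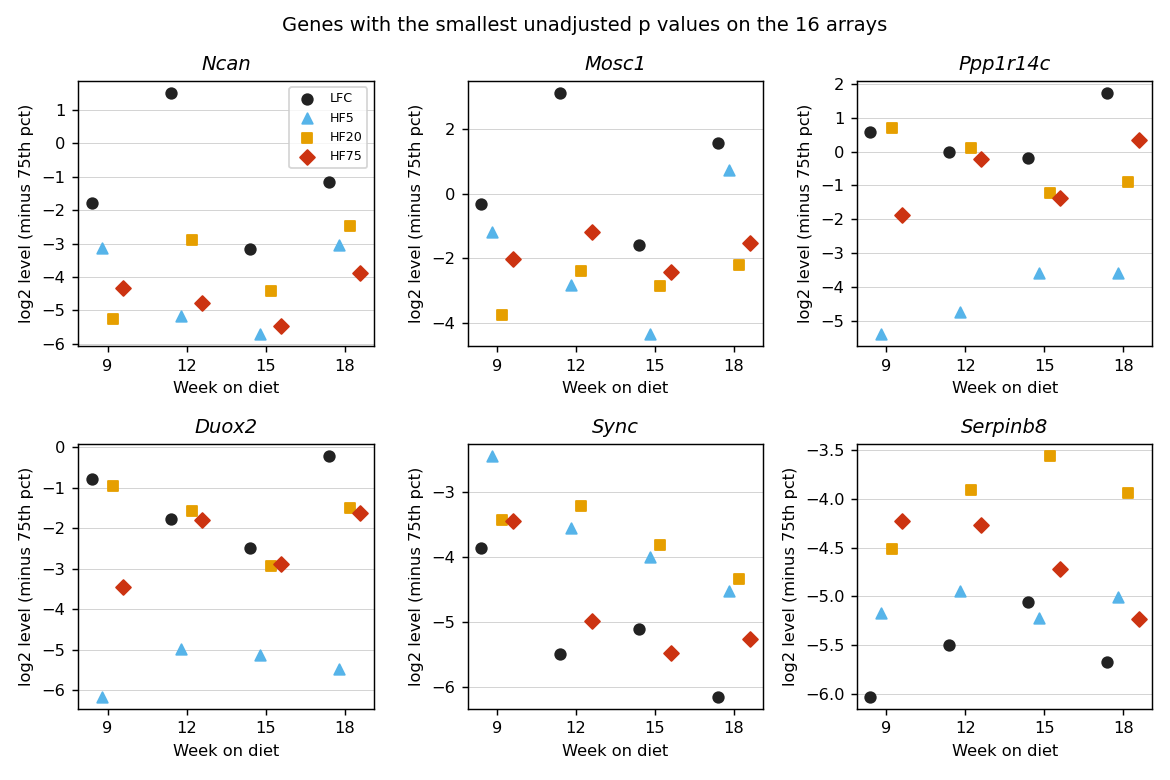
Levels (log2 processed signal minus the 75th percentile of the array) of 6 genes picked from those with small unadjusted p values, against week. Each point is 1 array, with LFC in black. Ppp1r14c and Duox2 show the HF5 arrays alone at the bottom, at -3.58 or lower and -4.99 or lower.

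The doses were next compared with LFC one by one, in the same fit and with the same 4 LFC arrays as controls. HF5 had 2 probes lower at an adjusted p of 0.05 (0.00655%) and 0 higher, HF20 had 0 (0%) and HF75 had 0 (0%), with 1407, 1279 and 466 probes at an unadjusted p under 0.05. Ppp1r14c, an inhibitor subunit of protein phosphatase 1, had levels of 0.58, -0.02, -0.20 and 1.73 in LFC and of -5.40, -4.76, -3.58 and -3.59 in HF5. With HF20 it was 0.71, 0.11, -1.24 and -0.91, and with HF75 -1.87, -0.22, -1.38 and 0.35. All 4 HF5 arrays were thus below all other arrays, and the level in HF5 fell by 4.86 ± 0.60 (SE, limma, adjusted p = 0.0432). A second probe of the gene gave a difference of 0.11 for the mean of the 3 doses against -2.34 for this one. Duox2, an NADPH oxidase that releases hydrogen peroxide, had levels of -0.79, -1.76, -2.49 and -0.21 in LFC and of -6.16, -4.99, -5.14 and -5.47 in HF5. With HF20 the levels were -0.96, -1.58, -2.93 and -1.51, and with HF75 -3.46, -1.80, -2.88 and -1.61. The HF5 arrays again lay below the others, and Duox2 fell by 4.13 ± 0.51 (SE, limma, adjusted p = 0.0432). For both Ppp1r14c and Duox2 the lowest HF5 level was on the dimmest array. Whether their HF5 signals were well above background is not given here. Where they were not, the size of each fall is a bound. Creb3l3, a factor of hepatic and gut lipid metabolism, was also lowest on the 4 HF5 arrays (-2.27 to -3.65) but did not pass (-3.66, adjusted p by limma 0.24).

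The calls of Ppp1r14c and Duox2 did not hold under every alternative. HF5 had 0 probes passing with quantile normalisation, normexp, the slide as a random block (smallest adjusted p by limma 0.0524), only probes well above background on all 16 arrays, and without the 4 arrays that stand apart. It also had 0 when any LFC array, any HF75 array, the HF5 arrays of weeks 9, 12 or 18, the HF20 arrays of weeks 12 or 15, or any whole week was left out.

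Whether the doses differed from each other was tested across all probes by limma's F test. No probe (0 of 30515, 0%) passed, with 3345 at an unadjusted p under 0.05 and a smallest adjusted p of 0.366. Ppp1r14c and Duox2 had an adjusted p of 0.37 in this test, so their difference between doses did not pass. The smallest p among HF20 genes were those of Sec16b (2.21), Islr2 (2.91) and Serpinb8 (1.59), the dim genes described above. Sec16b and Islr2 were well above background on no LFC array and passed the filter through KAL-1 arrays alone. Their HF20 values are thus set against background signal. Among HF75 genes the smallest p were those of Ddx3y (1.61), Ncan (-3.46) and Tnfrsf13b (-2.30), a receptor of B cells. Ddx3y, a Y-linked RNA helicase, had HF75 levels of -1.53, -0.88, 0.85 and -0.65 beside LFC levels of -4.10, -2.48, -0.26 and -1.81, the HF75 array being the highest of its week at all 4 weeks. Another probe of Ddx3y differed by -0.05 over the 3 doses against 0.42 for this one. For lipogenesis the medians were -1.44 with HF5, -0.39 with HF20 and -0.40 with HF75, for cholesterol -0.91, -0.49 and -0.50, and for collagens 0.78, 0.50 and 0.04. These 3 comparisons share their controls, and no difference between the medians was tested. At week 12 the LFC, HF20 and HF75 arrays were among the 4 that stand apart, and the HF5 array was not. The median lipogenic level that week was 5.55 on LFC, 4.33 on HF20, 4.01 on HF75 and 0.91 on HF5. For collagens and matrix it was 0.54, 2.24, 1.63 and 3.48 in the same order. The part of this split in the medians by dose was not tested.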

How the data were processed

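RNA of epididymal adipose tissue was labelled with Cy3 and hybridised to 1-colour Agilent arrays. The deposited scanner files hold processed signal intensities made by the authors with Feature Extraction (10.5.1.1 per the file headers, 9.1 per the submitters' processing notes). They have 45220 spots, give the build mm9 and give no positions for the probes. A table of log2 values deposited by the authors, expressed relative to LFC of the same week, was used only as an alternative (r of 0.992 to 0.999 with differences of the scanner values). Its columns of other arrays were not used here.

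Control spots and outlier spots were left out, spots of a probe were averaged, and log2(gProcessedSignal) minus the 75th percentile of each array was taken. A probe was tested if its signal was well above background on 4 or more arrays, as for 30515 of 40628 probes. 28136 probes (69.3%) were named through RefSeq by accession and the rest as in the files. The fit had 411 missing values, which limma leaves out. Limma 3.58.1 in R 4.3.3 fitted diet with week as a block (9 residual degrees of freedom), with Benjamini-Hochberg adjustment over all probes. In the lists the probe of highest mean level stood for its gene, and among the smallest p each probe was taken alone. Named genes were those passing, the 5 smallest p each way, 3 per dose and for the change with time, 2 per process list, and 9 fixed genes, of which some are not reported here. On simulated data of 30126 probes with KAL-1 changed in all 3 doses, 5 of 100 probes changed by 1 log2 unit, 22 of 50 by 2 and 44 of 50 by 4 were called, with 1 false call. The number of arrays limits the precision.

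Each week was also 1 scan date and held all 4 diets, so the week served as the batch. Labels give each diet its own replicate numbers, and pairing came from the week: deviations of a KAL-1 array and the LFC array of its week correlated from -0.144 (HF5 at week 12) to 0.803, with 11 of 12 above 0.1. Arrays lay on 13 slides. The members and gene lists were chosen with earlier results of these data known. Tried alternatives were 2 other scalings, another background correction, 2 filters, outlier spots kept, no block, array weights and slide as a random block. Others were 1 KAL-1 group, a paired t-test on the weekly differences, the authors' table, and leaving out each array or week.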

Additional observations from a re-analysis of the deposited data

Results flagged for a closer look

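In 380 groups of 4 arrays (a gene or a list median in 1 diet), 27 (7.11%) had 1 array far from the other 3 by Dixon's test, where chance gives about 1 in 20 for independent arrays. The 4 arrays of a diet are its 4 weeks, so a value set apart can be one that a week shares across diets. All values are log2 levels.

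On LFC at week 12, 6 were far from the other LFC arrays. Flt1 (4.14), Jund (3.37), Dusp1 (0.64), Ahrr (-5.23) and the median of the immediate early list (-0.55) were low, and Irs1 (2.18) was high. HF75 at week 12 stood low for Dusp1 (1.68), Ccl2 (-0.95) and the immediate early median (0.16), and high for Elovl6 (1.39). On HF20 at week 18, H2-DMb1 (-3.50), Lipa (0.98) and the median of the lipid associated macrophage list (0.87) were low and Fkbp5 (1.70) was high. These 3 arrays are among the 4 that stand apart.

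On HF5 at week 18, Scd1 (6.88), Scd2 (2.68), Kcnk3 (-1.75) and the median of fatty acid oxidation (3.08) were high and H2-Eb1 (-5.06) was low. For Scd1 and Scd2 this was the HF5 array nearest to LFC of its week.

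Among the other arrays, LFC at week 9 was high for the epididymis list (median 2.45) and LFC at week 18 for Creb3l3 (2.59). HF20 at week 9 was high for Lmo1 (2.45) and for the median of collagens and matrix (3.68, beside 3.92 on LFC of that week), and HF20 at week 15 was high for Cx3cr1 (-4.24) and low for Per3 (-7.22). HF75 at week 9 was high for Apln (2.23), and HF75 at week 15 for S100a8 (2.64).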

How the results depend on the processing

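For the mean of the 3 doses, HF20, HF75 and the difference among doses, every alternative and every array or week left out gave 0 probes. For HF5, the 2 probes became 0 with quantile normalisation, normexp, probes well above background on all 16 arrays, slide as a random block, and without the 4 arrays that stand apart, and ranged from 0 to 3 when 1 array or week was left out. It was 3 without HF5 at week 15 (2810459M11Rik joined), 2 without HF20 at week 9 and 1 without HF20 at week 18. For later against earlier weeks the range was 0 to 1. The 1 probe was Ifi202b, named after its values were seen, which passed without LFC at week 9 or without week 9. With no replicate block for the week, the pairing dropped, the calls were 0 for the mean of 3 doses, 2 for HF5, and 0 for HF20, HF75, the doses and the later weeks, so the block changed no call. Under the alternatives other than leaving out 1 array or week, 26 of 312 list medians changed sign, of which 1 had been over 0.2 in size (fat pad expansion, -0.07 without the 4 arrays). These alternatives gave medians of -0.82 to -0.49 for lipogenesis, -0.56 to -0.24 for cholesterol and 0.15 to 0.59 for collagens. With 1 array or week left out, 89 of 480 changed sign, cytokines and chemokines without LFC or HF5 at week 12 (-0.31 and -0.18) or without week 12 (-0.31) being those over 0.2. The same 3 medians then ranged from -1.05 to -0.48, -0.81 to -0.21 and 0.14 to 0.72.

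Under normexp the sign turned for Islr2 (-0.63), Sync (-0.40), Sec16b (-0.65), Serpinb8 (-0.42), Krt78 (-0.59), Lep (0.034), H2-Eb1 (-0.45), Plk1 (-0.10), Per3 (-0.74), Hlf (-0.0045) and Ahrr (-0.45). Normexp also moved the median of all probes to -0.27. Array weights turned Lep (0.20). Leaving out the 4 arrays turned Npr3 (-0.042) and Pik3r1 (0.0032). Leaving out 1 array or week gave -0.52 to 0.067 for Lep, -0.53 to 0.55 for Ccl2, -0.49 to 0.0039 for Dld, -0.29 to 0.91 for Dusp1 and -0.88 to 0.24 for Lmo1. The cause was not tested in any of these.

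Without LFC at week 12 alone, the medians were -0.48 for lipogenesis and -0.21 for cholesterol. Each week has 1 control array, so a single LFC array moves every weekly value. Signal over background limits the dim probes, and HF5 at week 9 was dimmest.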

Other observations

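Single probes also set arrays apart. Ifi202b, an interferon inducible gene, was not well above background on LFC at week 12 (-9.19). On the other 15 arrays it was well above background, at 2.35 to 4.82 (median 2.91), at least 1355-fold higher. That LFC array is the only control of week 12. Whether the mice of all arrays were of the same strain was not tested. On LFC at week 9, 29 probes were at least 3 log2 units above all other 15 arrays, genes of the epididymal defensin family (Defb20 and Defb47) among them. On HF75 at week 15, 67 probes were at least 3 units below all others, and on HF5 at week 15 the number was 43. On HF5 at week 9, the dimmest array, 57 were below and 33 above. On LFC at week 12, 2 were below and 12 above, among the latter Slc2a5, the fructose transporter, and Recql4, a DNA helicase. These genes are named after their values were seen.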
